A study of Mus musculus with 2 samples.

Results

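The BCL2 family of apoptosis regulators was examined at the RNA level in resting T cells, through 10 genes found by symbol among the 23167 symbols of the deposited expression files. They were taken by name, as the best-known genes of the family and with earlier results of these data known: 3 anti-apoptotic genes (Bcl2, Bcl2l1 and Mcl1) and 7 pro-apoptotic genes (Bax, Bak1, Bcl2l11, Bid, Bad, Bbc3 and Pmaip1). All 10 were found, and all 10 reached 1 RPKM (reads per kilobase of gene and 1000000 reads) in at least 1 library, 9 of them in both. The naive CD4 group and the naive CD8 group each held 1 RNA library, from Foxp3-GFP reporter mice on the C57/BL6 background. Both groups carried the reporter and the labels name no treatment that sets them apart. Cells had been taken from spleen and lymph nodes and sorted for high CD62L, low CD44, no CD25 and no Foxp3-GFP signal, with RNA depleted of ribosomal RNA. The labels state no age, sex, number of animals or pooling. The series concerns 5-hydroxymethylcytosine in T cells, and its RNA libraries set naive CD4 cells, the helper lineage, beside naive CD8 cells, the cytotoxic lineage.

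BCL2 proteins decide whether the outer mitochondrial membrane is breached. BAX and BAK are the effectors that form the pore, BCL2, BCL-xL (Bcl2l1) and MCL1 hold them and their activators in check, and the BH3-only proteins BIM (Bcl2l11), BID, BAD, PUMA (Bbc3) and NOXA (Pmaip1) relay stress or loss of growth factor by binding the guardians or the effectors. In naive T cells, survival signals from IL-7 and from self peptide contacts are known to keep BCL2 and MCL1 in place against BIM.

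The BH3 segment takes part in the binding between these proteins. Its coding sequence is shown because guardians, effectors and BH3-only proteins all carry it. The main coding sequence of each gene (GENCODE M21 transcripts, build GRCm38) was searched for a leucine, any 3 residues, a glycine, alanine or serine, an aspartate, and then an aspartate, glutamate, serine or glycine. The pattern was written from known BH3 segments, so its presence in the family is a description and not a finding. Of the 10 members, 9 held exactly 1 match and Pmaip1 held none, and 12.2% of 21504 protein-coding genes held one. A match is not shown to be a binding site, and the lack of one says only that these letters are absent. Each line below gives, for a member with a match, 45 bases of the sense strand, 5′ to 3′, with the leucine codon and then the codons of the small residue and the aspartate in capitals.
Mcl1: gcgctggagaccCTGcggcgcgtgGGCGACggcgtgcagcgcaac
Bcl2: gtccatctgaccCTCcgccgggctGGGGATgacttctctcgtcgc
Bcl2l1: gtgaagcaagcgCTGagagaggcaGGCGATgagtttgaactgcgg
Bax: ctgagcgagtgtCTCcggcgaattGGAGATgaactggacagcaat
Bak1: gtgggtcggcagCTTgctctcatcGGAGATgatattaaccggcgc
Bcl2l11: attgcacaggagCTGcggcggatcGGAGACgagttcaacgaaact
Bid: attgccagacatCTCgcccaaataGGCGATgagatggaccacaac
Bad: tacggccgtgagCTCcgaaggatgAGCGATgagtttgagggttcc
Bbc3: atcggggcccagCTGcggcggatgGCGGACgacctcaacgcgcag
In 7 of the 9 the small residue is glycine; Bad carries the serine codon and Bbc3 the alanine codon at that place.

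The read totals behind the deposited RPKM were inferred as 24741945 (CD4) and 23853921 (CD8). They are the denominators of the RPKM and not observed library sizes. Of the 23167 symbols, 10228 reached 1 RPKM in at least 1 library and were compared. The sort was visible in its defining genes, since the 3 CD4 T cell markers summed to 389 RPKM in CD4 and 11.1 in CD8, and the 2 CD8 T cell markers to 23.9 and 1306 RPKM. The 5 pan-T genes and the 4 naive genes were above 1 RPKM in both libraries. Of the lists for other cells, Hba-a1, Hbb-b1, Siglech and Klra4 were listed at 0 in both libraries and Ncr1 in CD8. The other genes found from these lists had reads in both libraries, up to 106 RPKM for Klrd1 in CD8. The sums of these lists are given below. Since each group is a single library, differences have no replicate check and carry no test. Intervals are exact 95% counting intervals. They cover the error of counting reads in these libraries and say nothing of the spread between animals. A lower value in bulk RNA cannot tell fewer expressing cells from less RNA per cell.

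Among the guardians, Mcl1 dominated in both libraries. This short-lived inhibitor of BAK and BIM stood at 128 RPKM in CD4 against 99.9 RPKM in CD8, above 95.9% and 94.4% of the compared genes. It made up 84.9% of the summed anti-apoptotic RPKM in CD4 and 82.3% in CD8. Its level was 1.28-fold higher in CD4, with a counting interval of 1.24 to 1.31. That interval leaves out scaling. Under the alternatives named below, its log2 difference of 0.35 ran from 0.23 to 0.56. Only 1 other anti-apoptotic member reached 10 RPKM.

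That member, Bcl2, the founding inhibitor and a target of IL-7 signalling, stood at 19.7 RPKM in CD4 against 19.3 RPKM in CD8. The ratio of 1.02 had a counting interval of 0.976 to 1.07, which held 1. Scaling is not covered by that interval, and the value of Bcl2 depended on it. Its log2 difference was 0.03 as deposited and 0.24 once both libraries were brought to a sum of 1000000. Relative to the median gene, which stood 0.08 toward CD4 on the log2 scale, Bcl2 lay slightly on the CD8 side at -0.05. Bcl2 stands on 2 rows with identical values and was counted once.

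Bcl2l1, the gene of BCL-xL, the inhibitor that T cells induce upon activation, was the lowest of the 3 at 3.06 RPKM in CD4 against 2.21 RPKM in CD8. It was 1.38-fold higher in CD4 (1.09 to 1.75), on 179 and 125 reads. In CD8 it was the lowest of all 10 members. The values are per gene, so the long and short splice forms of Bcl2l1, Mcl1 and Bcl2l11 cannot be told apart.

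**Figure D1:**
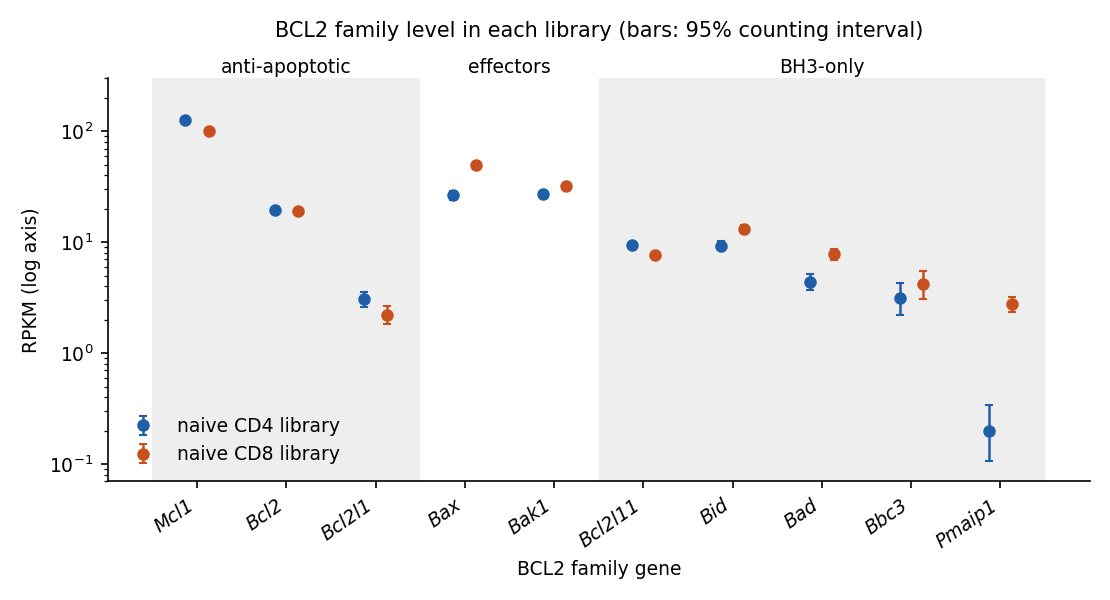
RPKM on a log axis for the 10 members in the naive CD4 library (blue) and the naive CD8 library (orange), grouped as anti-apoptotic, effector and BH3-only genes, with 95% counting intervals as bars. Mcl1 stands highest in both libraries at 128 and 99.9 RPKM, and Pmaip1 shows the widest gap, at 0.198 and 2.77 RPKM.

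The effectors differed from each other. Bax, which moves from the cytosol to mitochondria when activated, stood at 26.4 RPKM in CD4 against 50.1 RPKM in CD8, a 1.90-fold higher level in CD8 (1.71 to 2.11). Bak1, the effector that resides on mitochondria, stood at 27.4 RPKM in CD4 against 31.9 RPKM in CD8, 1.16-fold higher in CD8 (1.08 to 1.25). In CD4 the 2 effectors were level, with overlapping intervals of 24.3 to 28.7 RPKM for Bax and 26.0 to 28.9 RPKM for Bak1. In CD8 Bax was 1.57 times Bak1. The ratio of Bax to Bak1 was thus 1.63-fold higher in CD8 (1.44 to 1.85), a comparison within libraries that does not depend on how each was scaled. It is not free of the trend with gene length described below.

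Of the BH3-only genes, Bcl2l11 was the 1 pro-apoptotic member with more RNA in CD4. BIM, its product, binds all the guardians and is needed to delete T cells in the thymus and after responses. The gene stood at 9.43 RPKM in CD4 against 7.60 RPKM in CD8, 1.24-fold higher in CD4 (1.14 to 1.35). The other 4 BH3-only genes had higher values in CD8.

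Bid, whose protein links death receptors to mitochondria once caspase-8 cuts it, stood at 9.28 RPKM in CD4 against 13.3 RPKM in CD8, 1.43-fold higher in CD8 (1.26 to 1.62). Bad, a sensitizer that survival kinases silence by phosphorylation, stood at 4.38 RPKM in CD4 against 7.79 RPKM in CD8, 1.78-fold higher in CD8 (1.45 to 2.18). Bbc3, the p53 target PUMA, stood at 3.12 RPKM in CD4 against 4.17 RPKM in CD8. Its 1.34-fold ratio had an interval of 0.858 to 2.10 on 38 and 49 reads, so no difference was detectable at this depth. Its reads are known only up to a common multiple, and with 152 and 196 reads, at 1972 bases and near an annotated transcript of 1814 bases, the interval would run from 1.08 to 1.66.

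Pmaip1 showed the largest difference of the family. NOXA, its product, binds MCL1 selectively and hastens its degradation. The gene stood at 0.198 RPKM in CD4, on 13 reads, against 2.77 RPKM in CD8, on 175 reads, a 14.0-fold higher level in CD8 (7.96 to 26.7). In CD4 it was the lowest of the members, and in CD8 it was above 14.6% of compared genes. It passed the filter of 1 RPKM through CD8 alone. In RPKM the gap was small, 2.57, against 23.7 for Bax. With 1 RPKM added to both values its log2 difference was -1.65, which 1.07% of compared genes matched or passed toward CD8. With 5 RPKM added it was -0.58, under the 2-fold rule.

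Markers of other cells and states moved with Pmaip1. Of the 4 memory and activation markers, 2 were above 1 RPKM in CD4 and 3 in CD8, and the list summed to 10.1 RPKM in CD4 and 187 RPKM in CD8. In CD8 most of that was Ly6c2 (2.59 and 164 RPKM), and in CD4 it was Cd44 (6.33 and 2.60 RPKM). The 4 NK markers summed to 7.99 and 107 RPKM, with Klrd1, which CD8 T cells also express, at 7.85 and 106 RPKM, while Klra4 was listed at 0 in both and Ncr1 had 0.111 RPKM in CD4 and was listed at 0 in CD8. The 5 B cell markers summed to 3.45 and 30.04 RPKM, in CD8 nearly all of it Cd79b at 2.14 and 28.8 RPKM, and Ms4a1 was below 1 RPKM in both. The 5 myeloid markers found summed to 7.16 and 5.36 RPKM, the 3 dendritic markers to 0.363 and 1.13 RPKM, and the 3 erythroid markers to 0.226 and 0.192 RPKM. The 3 regulatory T cell markers summed to 6.29 and 14.2 RPKM. Foxp3, the defining gene, went the other way, at 1.40 RPKM in CD4 and 0.161 in CD8, while Ikzf2 (1.07 and 5.38 RPKM) and Ctla4 (3.82 and 8.64 RPKM) were higher in CD8. Their part in the Pmaip1 difference was not tested.

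**Figure D2:**
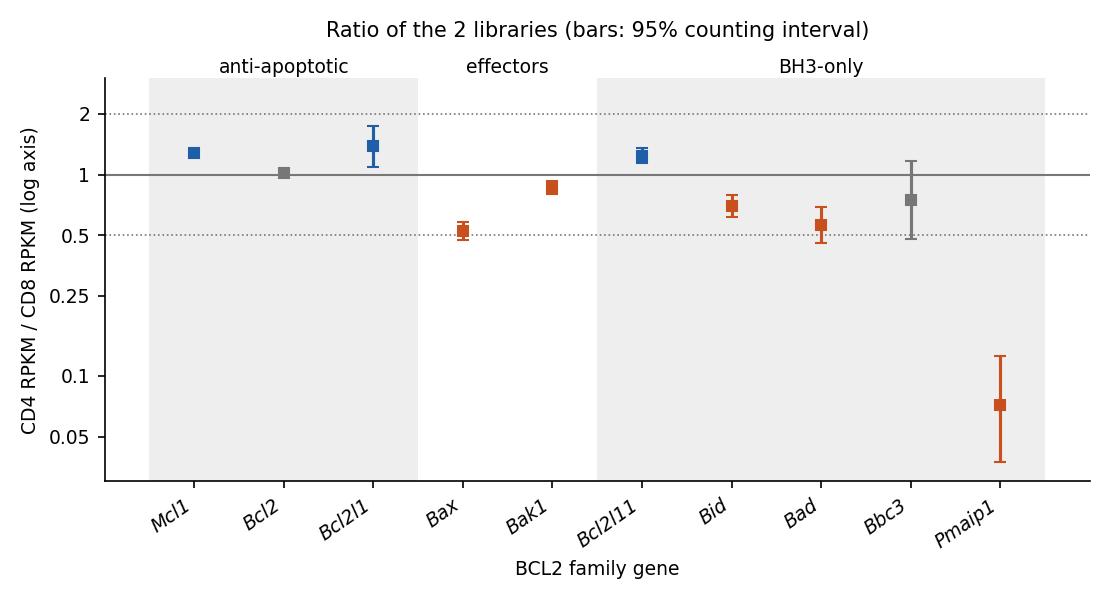
CD4 RPKM divided by CD8 RPKM on a log axis for the 10 members, with 95% counting intervals as bars and dotted lines at 2-fold. Mcl1, Bcl2l1 and Bcl2l11 (blue) lie above 1 with their whole interval, Bax, Bak1, Bid, Bad and Pmaip1 (orange) below it, and the intervals of Bcl2 and Bbc3 (grey) hold 1.

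By the size rule (an absolute log2 difference of 1 or more with 1 RPKM added), 1 of the 10 members, Pmaip1, was at least 2-fold apart, against 5.48% of all compared genes. Toward CD8 the background was 3.07% and toward CD4, where no member passed, 2.41%. At 1.5-fold, a threshold added after the values were seen, 3 members (Bax, Bad and Pmaip1) were higher in CD8, against 7.47% of compared genes, and none was higher in CD4, against 8.07%. Counting intervals lay on 1 side of 1 for 8 of the 10 members, against 72.0% of compared genes, so that count is near the background. They were above 1 for 3 members (45.0% of compared genes) and below 1 for 5 (27.0%).

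The classes leaned apart. All 3 anti-apoptotic members were above 0 on the log2 scale, with a median difference of 0.34, although Bcl2 turned to the CD8 side when differences were centred on the median gene. Of the 7 pro-apoptotic members, 6 were below 0 and the median was -0.47, Bak1 standing at -0.01 when each library was rescaled to a sum of 1000000. The median of the 10 members was -0.27, beside 0.08 for all compared genes, of which 59.5% were above 0. That rescaling moved the median of all genes by 0.21 toward CD4, and the median of the members to -0.09. It also turned the genes past 2-fold from 247 toward CD4 and 314 toward CD8 (44.0% toward CD4) to 600 and 324 (64.9%).

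In order of level, the family began in both libraries with Mcl1 and had Bcl2 at rank 4. In CD4, Bak1 and Bax had overlapping intervals, as had Bcl2l11 (8.90 to 9.98 RPKM) and Bid (8.43 to 10.2 RPKM), which followed Bcl2. Bad, Bbc3 and Bcl2l1 came next, where Bad and Bbc3 overlapped and Bbc3 overlapped Bcl2l1. In CD8, Bax stood clear of Bak1, and Bid stood clear of Bad and Bcl2l11, which overlapped each other. Bbc3 and Pmaip1 overlapped there, as did Pmaip1 and Bcl2l1. The places of Bid and Bcl2l11 thus differed, with Bid at 0.985 times Bcl2l11 in CD4 and 1.75 times in CD8, a 1.77-fold higher ratio in CD8 (1.52 to 2.07).

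Ratios within a library put guardians against the killers they are known to bind. Summed over each class, anti-apoptotic RNA was at 150 RPKM against 80.3 RPKM of pro-apoptotic RNA in CD4, a ratio of 1.87. In CD8 the sums were 121 and 118 RPKM, a ratio of 1.03. The CD4 ratio was 1.82 times the CD8 ratio, with an approximate counting interval of 1.72 to 1.92. Mcl1 and Bax set much of these sums, and without both the ratios were 0.422 and 0.318, so that CD4 stood at 1.33 times CD8. The sums weight RNA equally and say nothing of protein.

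The ratio of Mcl1 to Bcl2l11 was 13.5 in CD4 and 13.1 in CD8, with an interval of 0.940 to 1.13 for the CD4 to CD8 quotient. This was the 1 of the 10 pairs examined whose interval held 1. The ratio of Bcl2 to Bcl2l11 was 2.09 in CD4 and 2.53 in CD8, 1.21-fold higher in CD8 (1.099 to 1.34), which ran against the direction of the summed classes. At the RNA level neither library had an excess of Bcl2l11 over Bcl2.

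Pairs with an effector or a sensitizer showed more Bcl2 family inhibitor RNA per killer in CD4. The ratio of Bcl2 to Bax was 0.745 in CD4 and 0.385 in CD8, 1.94-fold higher in CD4 (1.73 to 2.17). The ratio of Mcl1 to Bak1 was 4.65 in CD4 and 3.13 in CD8, 1.49-fold higher in CD4 (1.37 to 1.61). For Bcl2l1 to Bad it was 0.697 and 0.284, 2.45-fold higher in CD4 (1.79 to 3.36).

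The widest pair was Mcl1 to Pmaip1, at 644 in CD4 and 36.1 in CD8, 17.8-fold higher in CD4 (10.2 to 34.2). Of the BH3-only genes that p53 is known to induce, Bbc3 was 15.7 times Pmaip1 in CD4 and 1.51 times in CD8, a quotient of 10.4 (4.93 to 22.9). Among the guardians, the ratio of Bcl2 to Mcl1 was 0.154 in CD4 and 0.193 in CD8, 1.25-fold higher in CD8 (1.18 to 1.32). In all, 5 of the 10 intervals lay above 1 and 4 below it. The side depends on which gene of a pair is written first. No share over other gene pairs was computed, and 72.0% of single compared genes had an interval on 1 side of 1. The pairs share genes and are not independent.

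**Figure D3:**
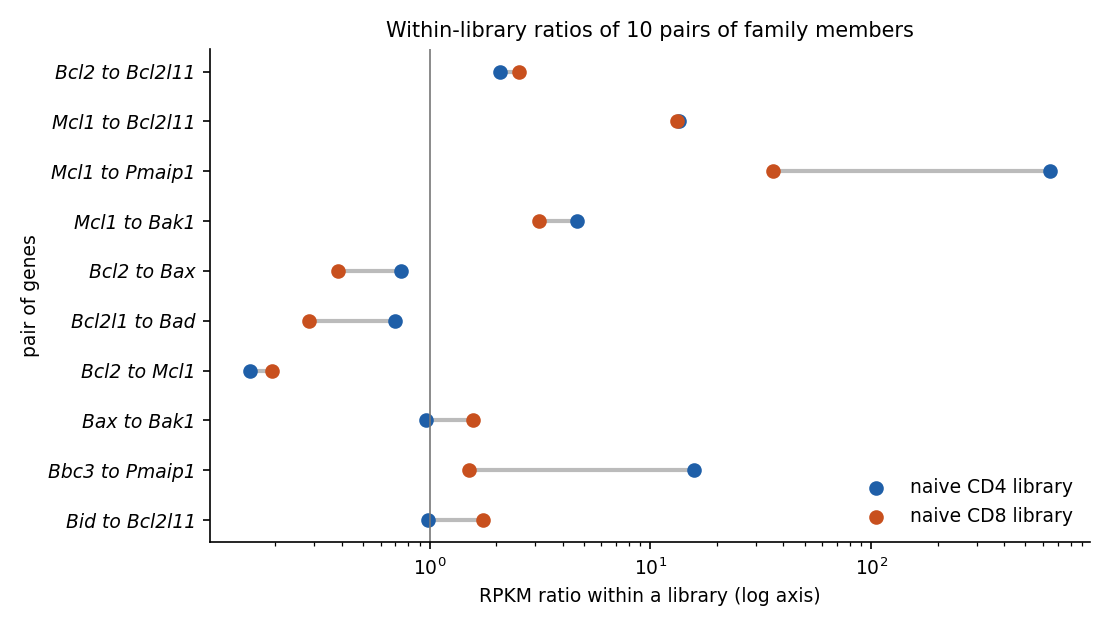
RPKM ratio of 10 pairs of members within the naive CD4 library (blue) and the naive CD8 library (orange), on a log axis, with a grey bar joining the same pair. Mcl1 to Pmaip1 runs from 36.1 in CD8 to 644 in CD4, while Mcl1 to Bcl2l11 is nearly the same in both at 13.1 and 13.5.

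Gene length, as recovered from the RPKM, moved with these differences. Across 10 equal groups of compared genes by length, the median log2 difference went from -0.18 in the shortest group (up to 995 bases) to 0.16 in the longest (from 6154 bases). The 5 shortest members, Bbc3, Bax, Bad, Bid and Bak1 (493 to 1996 bases), were all below 0. The medians of their length groups ran from -0.18 to 0.08. Of the 5 longest members (2368 to 7736 bases), Bcl2l1, Mcl1, Bcl2l11 and Bcl2 were above 0 and Pmaip1 below it. For these the group medians ran from 0.08 to 0.16. All 3 anti-apoptotic genes are thus among the longer members, so class and length moved together. The length of Mcl1 is known only up to a multiple, and at the smallest one, 1161 bases, it would be among the shorter members and its difference from its length group would be 0.37. Ratios between members carry the length trend as well. At the recovered lengths, the log2 gap between the medians of a pair's length groups was widest for Bcl2 to Bax (0.34), Bbc3 to Pmaip1 (-0.28) and Bax to Bak1 (-0.26). For Bcl2 to Bax and Bax to Bak1 it had the direction of the pair's difference, and for Bbc3 to Pmaip1 the opposite one. Its part in the pair ratios was not tested.

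Set against the median of its own length group, an alternative added after the values were seen, the members kept their side of 0 except Bcl2. Bax, at 863 bases, was at -0.90 as deposited and -0.72 after this centring, and 12.3% of the 1023 genes of its length group were as far toward CD8. Bad was at -0.71 and -0.68, with 6.45% of its group as far, and Bid at -0.47 and -0.51, with 11.5%. Bak1 was at -0.21 and -0.29 (20.4%), and Bbc3 at -0.33 and -0.15 (40.1%). At the longer length of 1972 bases, Bbc3 would fall in a group with a median of 0.08. Pmaip1, at 2651 bases, was at -1.65 and -1.75, with 0.978% of its group as far. Toward CD4, Mcl1 was at 0.35 and 0.23, with 21.4% of its group as far that way. Bcl2l1 was at 0.34 and 0.26 (21.9%), and Bcl2l11 at 0.28 and 0.14 (31.1%). Bcl2 turned from 0.03 to -0.13. After this centring 3 members were above 0 and 7 below it, where the median gene of each group stands at 0 by construction. The part of length in the difference between the classes was not tested beyond this centring.

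**Figure D4:**
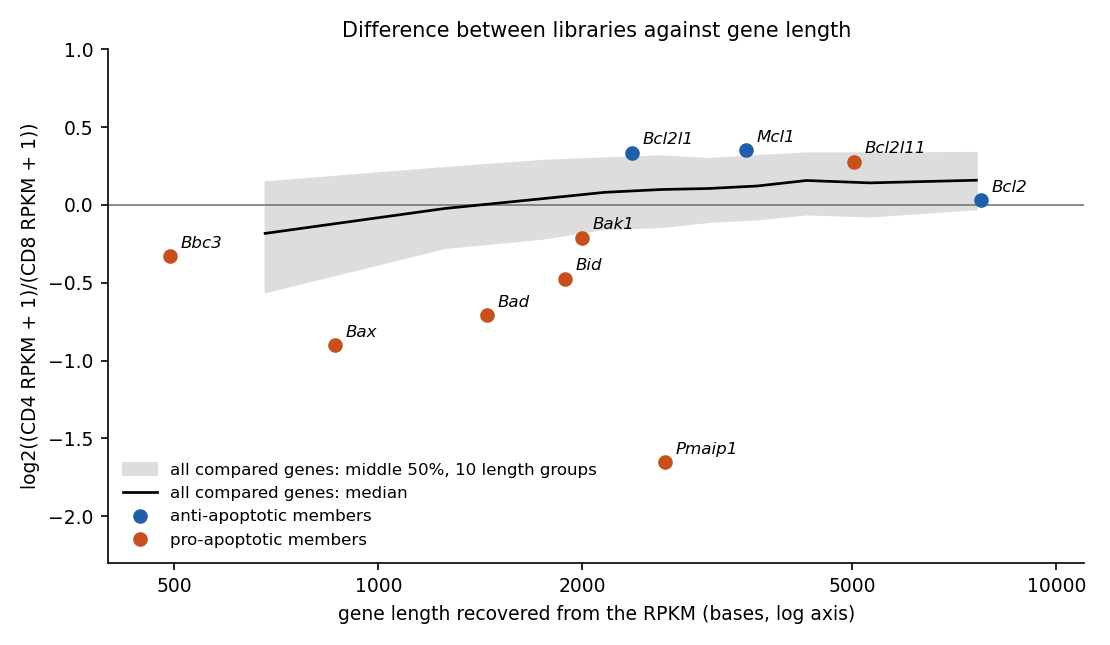
Log2 difference (CD4 minus CD8, 1 RPKM added) against gene length on a log axis, with the 3 anti-apoptotic members in blue, the 7 pro-apoptotic members in orange, and the median (line) and middle 50% (grey band) of all compared genes in 10 length groups. Bax, Bad, Bid and Bak1 lie below the band of genes of their length and Pmaip1 at -1.65 lies farthest from it.

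The rest of the family was described from 2 lists. Of 6 other anti-apoptotic genes, Bcl2l10, Bcl2a1a and Bcl2a1c were listed at 0 in both libraries, and Bcl2l2 and Bcl2a1d were below 1 RPKM in both. Bcl2a1b, an A1 gene that NF-kB induces, stood at 6.95 RPKM in CD4 against 2.09 RPKM in CD8, 3.32-fold higher in CD4 (2.30 to 4.90) and past the 2-fold rule. The A1 genes are near-identical copies, so their reads could be shared and the value is uncertain. Of 10 other pro-apoptotic and atypical genes, 6 were compared and none was 2-fold apart, beside 5.48% of all compared genes. Bnip3l, the mitophagy receptor NIX, was the highest at 47.2 and 37.0 RPKM. Bcl2l13, also a mitochondrial family protein, was at 9.58 and 10.4 RPKM. The BH3-only genes Bmf (2.29 and 3.54 RPKM, 1.55-fold higher in CD8, 1.32 to 1.82) and Bik (0.646 and 1.21 RPKM) differed most, and the interval for Bik, 0.958 to 3.78, held 1. Hrk and Bok were listed at 0.

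Around and downstream of the pore, none of the 10 mitochondrial partners was 2-fold apart, beside 5.48% of all compared genes, and their median was -0.06. So small a list can hold none at that background. Vdac2, a channel known to hold BAK, was at 78.4 and 88.4 RPKM and Vdac3 at 36.4 and 41.6 RPKM. Diablo, which frees caspases from their inhibitors, was at 27.1 and 20.6 RPKM and Aifm1 at 10.9 and 15.03 RPKM. Of the 11 compared apoptosome, caspase and inhibitor genes none was 2-fold apart, with a median of 0.09. Birc3, the inhibitor cIAP2, differed most at 56.7 and 37.2 RPKM (1.52-fold higher in CD4, 1.45 to 1.60), and the 2 highest by the mean of both libraries were Birc6 (82.5 and 74.4 RPKM) and Bag1 (52.9 and 53.7 RPKM).

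Upstream, 7 of the 10 death receptor genes that feed into Bid were above 0, beside 59.5% of all compared genes, and their median was 0.38. The other 3, named after their values were seen, were Fas (-0.10), Ripk1 (-0.13) and Tnfrsf10b (-0.08). Fasl, the ligand of FAS, was the 1 past 2-fold, beside 5.48% of all compared genes. It stood at 11.6 RPKM in CD4 against 1.17 RPKM in CD8, 9.89-fold higher in CD4 (7.47 to 13.3). Casp8, the protease that cuts BID, was at 81.4 and 63.7 RPKM (1.28-fold, 1.23 to 1.33), its decoy Cflar at 37.8 and 27.7 RPKM, and the adaptor Fadd at 8.45 and 5.41 RPKM. Bid itself was higher in CD8, as given above.

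The 14 genes of the survival cytokine axis went both ways, with 6 above 0, 8 below, and a median of -0.13. Of all compared genes, 59.5% were above 0. Past 2-fold were 3 of the 14, beside 5.48% of all compared genes. Il2rb, the receptor chain for IL-15 and IL-2, reached 44.1 RPKM in CD8 against 7.01 RPKM in CD4 (6.29-fold, 5.80 to 6.82). Pim2, a survival kinase known to phosphorylate BAD, reached 22.9 RPKM in CD8 against 9.67 RPKM in CD4 (2.37-fold, 2.13 to 2.64). Il4ra, the IL-4 receptor chain, was past 2-fold toward CD4 at 152 and 68.9 RPKM (2.21-fold, 2.15 to 2.26). The highest, Il2rg (326 and 353 RPKM) and the kinase Jak1 (198 and 260 RPKM), were under the rule.

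None of the 6 compared transcription factors of BH3-only genes was 2-fold apart, beside 5.48% of all compared genes. So small a list can hold none at that background. Of the 6, 5 were above 0, beside 59.5% of all compared genes, and the median was 0.26. Trp53, the activator of Bbc3 and Pmaip1, stood at 26.4 RPKM in CD4 against 34.4 RPKM in CD8, 1.303-fold higher in CD8 (1.21 to 1.41). Ddit3, the stress factor CHOP that induces Bcl2l11, was at 37.5 and 23.5 RPKM, 1.60-fold higher in CD4 (1.43 to 1.80). Of the 15 compared controllers of the proteins, 1 was 2-fold apart, the pseudokinase gene Trib2 at 117 RPKM in CD4 against 50.05 RPKM in CD8 (2.34-fold, 2.27 to 2.42), and the median was 0.14. Dynll2, a dynein light chain that holds BMF, was at 5.07 and 2.99 RPKM, and Ywhaz, a 14-3-3 gene of the kind that sequesters BAD, at 83.9 and 89.3 RPKM. Over all 8 lists, 6 of 73 compared genes were past 2-fold, 4 toward CD4 and 2 toward CD8, which is 8.22% beside 5.48% of all compared genes (2.41% toward CD4 and 3.07% toward CD8). Their median of 0.08 equals that of all compared genes to 2 decimals.

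**Figure D5:**
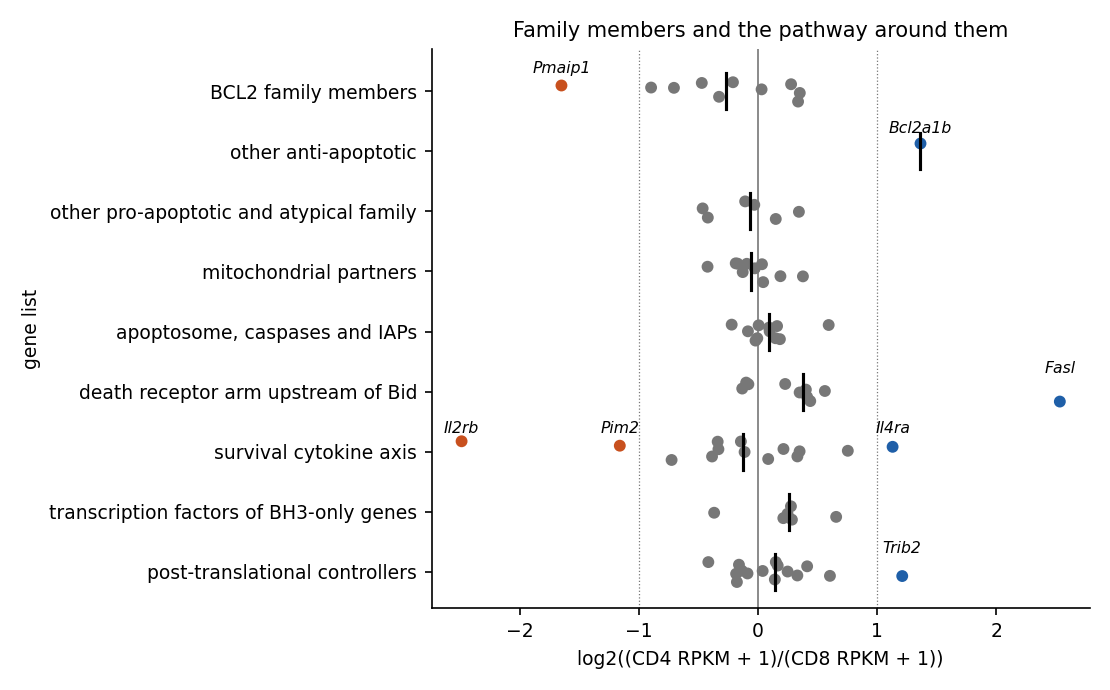
Log2 difference (CD4 minus CD8, 1 RPKM added) of the 10 members and of the compared genes of 8 surrounding lists, 1 point per gene, with a black bar at each median and dotted lines at 2-fold. Genes past 2-fold are named and coloured blue toward CD4 and orange toward CD8. The members' median of -0.27 is the lowest of the rows.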

How the data were processed

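Sequencing used total RNA without ribosomal RNA, 1 library for each cell type, prepared with a low-input SOLiD protocol, per the labels' protocols. The submitters' processing notes list TopHat and HTSeq, with no version, and the genome build mm9. Which annotation, strand setting and multi-mapping rule applied is not stated in the labels or files. Values were used as deposited by the authors, in RPKM. Of the symbols, 2597 stood on several rows with equal values and were each counted once. Coordinates are left out because the reference annotation is GRCm38.

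Members and gene lists were chosen with earlier results of these data known. Named genes were all members and, from each list, the 2 highest, the 2 most different and any past 2-fold. Some genes under this rule are not reported here. The main statistic was log2((CD4 RPKM + 1)/(CD8 RPKM + 1)) over the 10228 genes at 1 RPKM or more in at least 1 library. Single-gene folds are RPKM ratios without the added value.

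Whole reads were recovered as the smallest gene length that makes the reads of both libraries whole, times the multiple nearest to a GENCODE M21 transcript length. All 12735 genes above 0 in both libraries came out whole within the printed 9 decimals or 10 significant digits. Recovered reads summed to 1.05 and 1.06 times the totals, and the cause was not tested. Intervals are Clopper-Pearson (scipy 1.17.1) from the split of a gene's reads, exact conditional odds ratios for pairs, and a normal approximation for class sums. The recovery was also run on simulated libraries. These were built with the recovered gene lengths, so they could not test the choice of multiple. Alternatives were pseudocounts, filters, scalings and class definitions. No p-value is given.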

Additional observations from a re-analysis of the deposited data

How the results depend on the processing

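Under the 8 alternatives for the single-gene differences, 75 of 77 member values kept their direction. The exceptions were Bcl2 when centred on the median gene and on its length group. Sizes were less stable than direction. Rescaled to a sum of 1000000, Mcl1 was at 0.56, Bcl2 at 0.24 and Bax at -0.70. The members' median stayed below 0 under each of the 8. The number of members past 2-fold was 0 with a pseudocount of 5 RPKM and 0 with a filter at 5 RPKM, which by its construction left out Pmaip1, Bcl2l1 and Bbc3. The anti-apoptotic to pro-apoptotic quotient (1.82) was 2.29 with geometric means, 1.33 with each class's highest member left out and 1.51 with the wider lists. Without Mcl1 alone or Bax alone, both added after seeing the data, it was 1.55 each. The wider lists also lowered the ratios within each library, to 1.03 in CD4 and 0.683 in CD8. They count atypical genes such as the mitophagy receptor gene Bnip3l as pro-apoptotic. With the smallest whole reads the interval of Mcl1 widened to 1.22 to 1.34, and those of the 4 pairs with Mcl1 widened, with 0 of 10 pairs changing side of 1. No paired analysis was possible because each group has 1 library, and none could be left out. Depth limits Bbc3, with 38 and 49 reads, and Pmaip1 in CD4, with 13.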
